A study of Caenorhabditis elegans with 34 samples.

Results

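The comparison described here set C. elegans with bright mir-243p::GFP fluorescence, predicted to be long-lived, against dim animals of the same cultures, predicted to be short-lived. It took every library made from animals sorted on this reporter, 8 of the 34 in the series: 4 libraries of mir-243p::GFP high animals and 4 of mir-243p::GFP low animals, each high library paired with the low library of the same sort. The other 26 libraries came from sorts on lin-4p::GFP (12), mir-240/786p::GFP (8) and red autofluorescence (6), and entered only where the difference was set against theirs. All animals came from a synchronized population at day 5 of life, kept at 25 °C on E. coli. Both mir-243p::GFP groups carried the integrated reporter in a spe-9(hc88) background, a temperature-sensitive allele under which sperm are made but do not fertilize. The high group was the brightest 10% of the animals and the low group the dimmest 10%. Each library was poly(A)-selected RNA of a pool of whole animals, so fewer cells of a type and less RNA per cell cannot be told apart. The labels do not say whether the 4 sorts were separate cultures, and if they were not, the p-values measure only technical spread.

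mir-243 is a microRNA of C. elegans that is loaded into the Argonaute RDE-1 and directs the production of secondary small RNAs against the mRNA of Y47H10A.5. The reporter places the promoter of the microRNA gene before GFP and is expressed in the intestine, the large gland of the animal that digests bacteria, stores fat, makes yolk, and secretes lysozymes, lectins and other proteins that act on microbes. Much of its digestion runs in an acidic lumen and in lysosomes with the same classes of enzyme: cathepsin proteases, lysozymes, saposin-like proteins and acid lipases. GFP fluorescence reports how active the promoter has been, not the level of the mature microRNA, which these libraries did not measure.

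Libraries held 17965508 to 24939626 counts in the high group and 20718573 to 23890389 in the low group. Levels are given in CPM, counts scaled to a library of 1e+06 with TMM factors, and 3 counts correspond to 0.12 to 0.167 CPM. The gfp transcript followed the sort. It stood at 3051, 2477, 3058 and 2050 CPM in the high libraries of sorts 1 to 4, against 1491, 1477, 1631 and 892 CPM in the low libraries. All high libraries lay above all low libraries, and within each sort the high library held 1.68 to 2.3 times as much. The log2 fold change was 0.97 (SE 0.12, n = 4 per group; exact permutation p = 0.0286 over the 8 libraries without the pairs and exact sign-flip p = 0.125 over the 4 pairs, both two-sided and each the smallest its design allows). The low animals therefore still expressed the reporter, whereas the 6 autofluorescence libraries, which carry none, held 0 to 16 gfp counts each.

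The first principal component of log2 CPM carried 56.8% of the variance among the 8 libraries and separated the groups with no overlap. Its scores were 53.5, 63.2, 24.7 and 33.2 in the high libraries and -49.3, -37.2, -35.9 and -52.1 in the low libraries of sorts 1 to 4. Sort 3 had the smallest separation: its 2 libraries lay 60.5 units apart, against 85.2 to 102.8 in the other sorts, and the SD of its log2 differences over genes was 0.684, against 0.835 to 0.925. Sort 3 nevertheless had a gfp difference inside the range of the other sorts, 0.907 on the log2 scale.

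**Figure D1:**
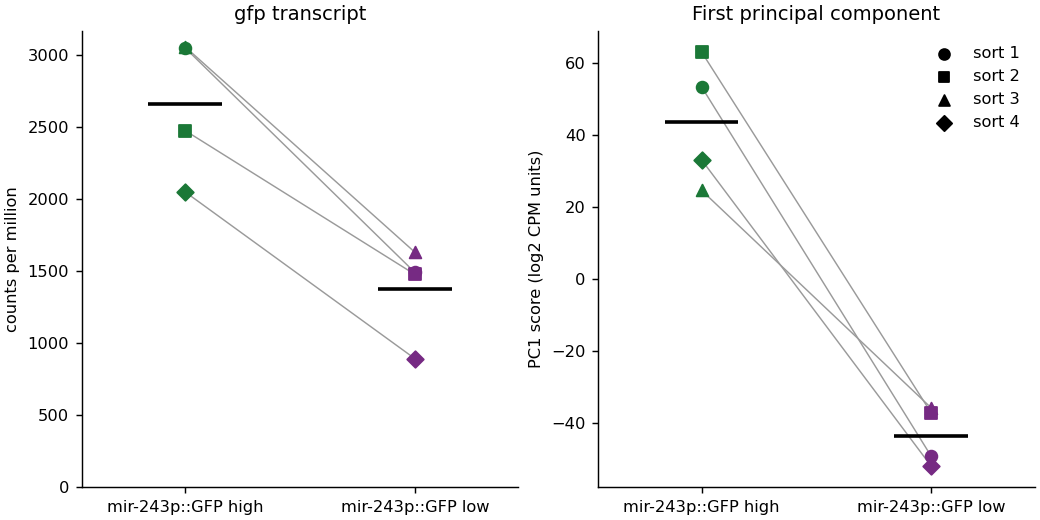
gfp transcript in CPM (left) and score on the first principal component of log2 CPM (right) for each library, mir-243p::GFP high in green and low in purple. Grey lines join the libraries of a sort and bars mark the mean of 4 libraries; every high library lies above every low library in both panels, and the PC1 gap is smallest in sort 3, at 60.5 units.

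A large share of the genes was called different. Of 14883 genes with enough counts to test, 4926 passed an adjusted p of 0.05 in edgeR's quasi-likelihood test with the sort as a block. Of the genes tested, 2344 (15.7%) were higher in mir-243p::GFP high animals and 2582 (17.3%) were lower. These shares are the background for the lists of this contrast. The direction was the same in all 4 sorts for 98.3% of the called genes, and the high and low libraries did not overlap for 76.9% of the called genes, against 31.1% of all genes tested. Changes past 2-fold numbered 886 higher and 1207 lower, and changes past 4-fold 161 higher and 121 lower. Over all genes tested the median log2 fold change was -0.02. At the study's threshold of 0.0001, 6 genes passed (0.0403%), 4 higher and 2 lower, with 3 residual degrees of freedom in the fit. The count depended on sorts 1 and 2: leaving out sort 1 left 2864 genes called and leaving out sort 2 left 2575, against 4693 without sort 3 and 3920 without sort 4, and none of the 4926 changed direction.

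The largest increases were led by enzymes of the lysosome and of digestion. The aspartyl protease gene asp-8 (chromosome V, 3024549 to 3027931, WBcel235) had 18.2, 12.7, 10.4 and 13.3 CPM in the high libraries, against 0.834, 0.733, 0.791 and 0.806 CPM in the low libraries. The low libraries were all near 0.8 CPM and the groups were far apart, for a log2 difference of 4.08 (SE 0.20, adjusted p = 9.43e-05, edgeR), the largest among the genes named by the rule given with the methods. The cathepsin B-like protease gene cpr-1 (chromosome V, 11975551 to 11976756) was the most abundant of the 12 largest increases, with 1075, 947, 1109 and 422 CPM in the high libraries, against 91.2, 116, 215 and 33.9 CPM in the low libraries. Sort 4 had the least cpr-1 in both groups and sort 3 the most, and the log2 fold change was 3.15 (SE 0.22, adjusted p = 0.000279, edgeR). The others with a known class were the lysozymes lys-4 (3.24) and ilys-5 (3.04), the saposin-like spp-2 (3.15), the aspartyl protease asp-17 (3.13), the C-type lectin clec-71 (3.08), the lysosomal lipase lipl-1 (3.07) and the acid sphingomyelinase asm-3 (3.01), all log2 fold changes. Y65B4BR.1 (3.83), W06G6.17 (3.46) and F42A10.7 (3.01) completed the 12. The exons of asm-3 overlap those of another annotated gene, as do those of other genes marked so below, and shared reads cannot be assigned to either.

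The largest decreases shared no single class. The largest among the named genes was in abu-14, a gene of a Gln/Asn-rich family that is expressed in the pharynx (chromosome II, 9225186 to 9227214), with 1.17, 0.941, 2.72 and 0.494 CPM in the high libraries, against 7.72, 11, 8.58 and 24.1 CPM in the low libraries. The groups did not overlap, and the log2 fold change was -3.22 (SE 0.58, adjusted p = 0.0072, edgeR). It was followed by the fatty acid- and retinol-binding protein gene far-3 (-3.13, exon overlap), F53F1.4 (-3.03), the cytochrome P450 gene cyp-13B1 (-2.91), F20D6.8 (-2.90, exon overlap), C27H5.6 (-2.85, exon overlap), Y46H3A.5 (-2.64), T10C6.15 (-2.62), C25F9.2 (-2.56), C54F6.18 (-2.51), chtb-1 (-2.48) and the leucine-rich repeat gene lron-2 (-2.46). Y46H3A.5 was the most abundant of the 12, with 7.62, 13.4, 13.2 and 8.65 CPM in the high libraries, against 88.0, 81.4, 49.3 and 50.9 CPM in the low libraries. C25F9.2 rested in part on 1 low library: it had 0.883 to 1.36 CPM in the high group, against 3.796, 30.5, 4.75 and 2.99 CPM in the low group. Leaving out sort 1 took abu-14 (adjusted p = 0.058), C25F9.2 (0.0878) and chtb-1 (0.0797, all edgeR) past the threshold, and leaving out sort 4 did so for C27H5.6 (0.0837). Among the increases, lys-4 was lost without sort 1 (0.0956) or sort 4 (0.0775) and ilys-5 without sort 4 (0.0571).

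**Figure D2:**
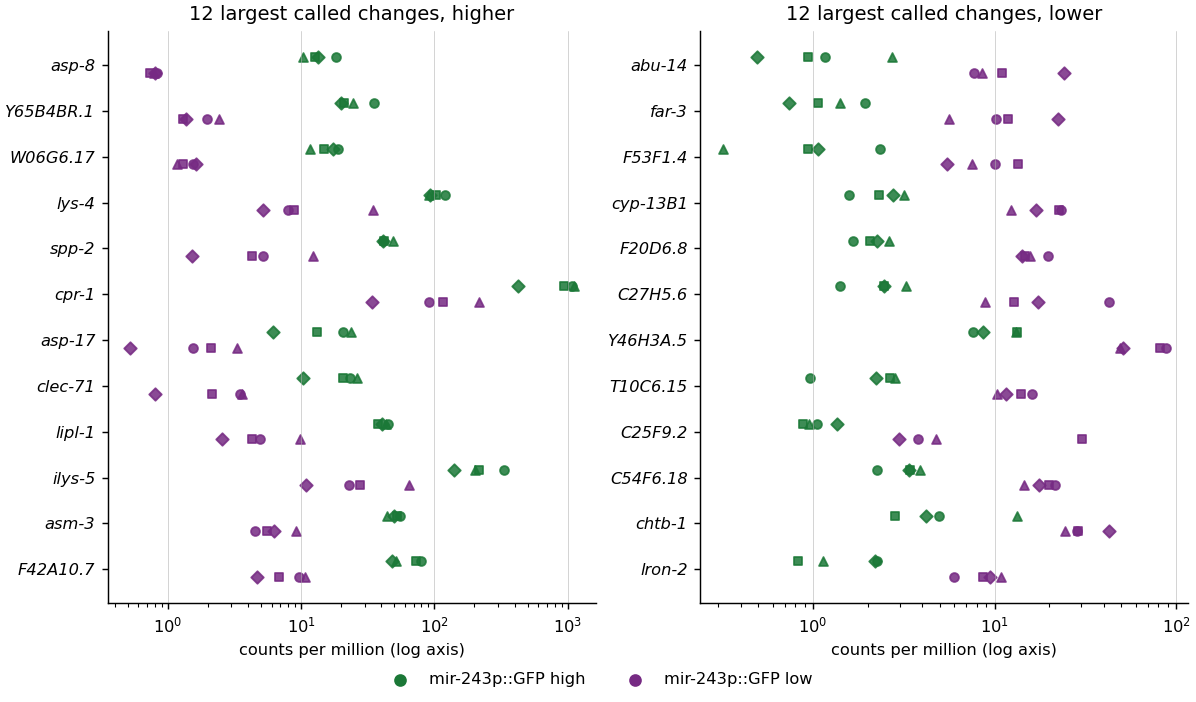
CPM on a log axis in each library for the 12 largest called increases (left) and decreases (right), mir-243p::GFP high in green above low in purple; circle, square, triangle and diamond mark sorts 1 to 4. No gene shown has overlapping groups; cpr-1 reaches 1109 CPM, and C25F9.2 has 1 low library at 30.5 CPM.

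The lists for lysosomal digestion and for proteins that act on microbes moved up far more often than the 15.7% of all genes. Of 22 aspartyl and cysteine cathepsins tested, 20 rose and 2 fell, with a median log2 fold change of 1.4, against -0.02 over all genes. Besides asp-8, cpr-1 and asp-17, the increases included the cathepsin Z-like cpz-1 (1.2), the cathepsin L-like cpl-1 (0.88) and asp-1 (2.04), the major aspartyl protease of the gut lumen. cpr-2 (-2.06) and tag-196 (-0.50) fell. Of 13 lysozymes, 9 rose and lys-3 (-1.96) fell, with a median of 1.8. lys-7, which acts in defence against several bacteria, was the most abundant lysozyme: it had 2411, 1922, 1889 and 1021 CPM in the high libraries, against 250, 329, 316 and 259 CPM in the low libraries. No library of lys-7 overlapped between groups, and its log2 fold change was 2.59 (SE 0.20, adjusted p = 0.000334, edgeR). lys-1 (1.81), lys-5 (2.54) and lys-8 (1.99, exon overlap) rose with it. Without sort 4 the count of lysozymes that rose was 5.

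Of 20 saposin-like and other antimicrobial peptide genes, 10 rose and nlp-31 (-0.69) fell, with a median of 0.62. The saposin-like spp-5, whose product opens pores in bacterial membranes, had 462, 422, 374 and 437 CPM in the high libraries, against 106, 107.98, 151 and 107 CPM in the low libraries. The spp-5 libraries were close together in the high group, and sort 3 stood above the rest in the low group. The log2 fold change of spp-5 was 1.86 (SE 0.14, adjusted p = 0.000314, edgeR). spp-8 (1.78), spp-14 (1.64) and spp-1 (2.02, exon overlap) rose as well, whereas the epidermal peptide genes were split, nlp-29 higher (0.83) and nlp-31 lower. No member was lower without sort 1, 2 or 3. Another 10 members of the list fell below the filter. Of 113 C-type lectin genes tested, 48 rose and 9 fell, with a median of 0.60, and 124 more were too low to test. clec-218 held 51.7, 46.7, 42.4 and 45.5 CPM in the high libraries, against 14.4, 11.6, 13.5 and 12.95 CPM in the low libraries (log2 fold change 1.83, SE 0.11, adjusted p = 0.00016, edgeR), and clec-160 (2.08), clec-83 (1.73, exon overlap) and clec-71 rose likewise. Without sort 1 or without sort 2 the lectins that fell numbered 5. Of 7 dod genes and CUB-domain genes that lie downstream of the FOXO factor DAF-16, 4 rose (dod-24, 2.96; dod-22, 2.39; dod-3, 1.6; dod-19, 0.59) and none fell, and 2 rose without sort 1.

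The list of the p38 MAPK pathway and of infection response genes had calls in both directions. The p38 kinase cascade controls intestinal defence genes in C. elegans, but whether each member of the list depends on it was not tested. Of the 21 tested members of the list 9 rose and 8 fell, with a median of 0.0065. Those that fell included the adaptor tir-1 (-1.54, exon overlap) and the kinases nsy-1 (-0.47, exon overlap), sek-1 (-0.67, exon overlap) and pmk-1 (-0.63), as well as the phosphatase vhp-1 (-1.61), which restrains it. vhp-1 had 114, 89.2, 199 and 101 CPM in the high libraries, against 347, 395, 391 and 335 CPM in the low libraries (SE 0.17, adjusted p = 0.000807, edgeR). Its groups did not overlap, with sort 3 highest in the high group. Those that rose included sysm-1 (2.26), K08D8.5 (2.31), clec-60 (2.22, exon overlap), clec-67 (2.05), irg-3 (2.00) and irg-7 (1.93). irg-2 fell, with 14.3, 19.1, 23.1 and 18.7 CPM in the high libraries, against 85.02, 75.02, 69.0 and 56.6 CPM in the low libraries (log2 fold change -1.93, SE 0.17, adjusted p = 0.000414, edgeR), and irg-1 (-1.48) fell too. Without sort 2 the list had 6 higher and 6 lower.

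Yolk and fat genes rose in part. The vitellogenins, the yolk proteins that the adult intestine makes for oocytes, were the most abundant genes that rose, and their levels varied widely between sorts. vit-2 (exon overlap) had 6818, 12969, 19150 and 4992 CPM in the high libraries, against 2426, 9059, 4866 and 2141 CPM in the low libraries. The vit-2 groups overlapped, yet the high library was above its own low library in every sort, and the log2 fold change was 1.3 (SE 0.22, adjusted p = 0.00411, edgeR). vit-6 had 5965, 12821, 17675 and 2717 CPM in the high libraries, against 1518, 5682, 3431 and 1219 CPM in the low libraries (1.67, SE 0.22, adjusted p = 0.00158, edgeR), and vit-5 gave 1.51. vit-1 (-0.27), vit-3 (0.51, exon overlap) and vit-4 (0.58, exon overlap) did not pass. These 3 calls rested on the pairing: without the sort as a block the adjusted p was 0.131 for vit-2, 0.102 for vit-6 and 0.0527 for vit-5 (edgeR), and no vitellogenin was called. Since the treatment of multiply mapped reads is not given, reads of similar vitellogenin genes may not be assigned to the right member. The 22 genes of fatty acid desaturation and elongation included 9 that rose and 3 that fell. fat-3 had 339, 318, 299 and 302 CPM in the high libraries, against 143, 141.8, 131 and 137 CPM in the low libraries (1.18, SE 0.08, adjusted p = 0.000194, edgeR), a tight difference in a gene for a delta-6 desaturase. The stearoyl-CoA desaturase genes fat-6 (1.03) and fat-7 (2.66) and the oleate desaturase gene fat-2 (0.68) rose too, whereas the fatty acid synthase gene fasn-1 (-1.28) and elo-4 (-0.83, exon overlap) fell. fasn-1 had 481, 401, 1363 and 465 CPM in the high libraries, against 1037, 1763, 1693 and 1368 CPM in the low libraries, so its groups overlapped through sort 3. Without sort 1, 2 or 4, 1 member of this list fell.

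Lysosomal lipases were prominent among the genes of lipid breakdown that rose. Of 18 acid lipases and lipid-binding proteins, 9 rose and 2 fell. They included lipl-1, lipl-2 (2.72), lipl-3 (2.79, exon overlap), lipl-4 (2.16, exon overlap) and lipl-5 (1.76), all lysosomal lipases, and the lipid-binding protein gene lbp-7 (2.33). lipl-2 was even in the high group, at 18.8, 19.4, 19.9 and 20.7 CPM. Its low libraries had 2.21, 2.24, 5.25 and 2.85 CPM, with sort 3 the highest. lipl-6 (-1.45) and the hormone-sensitive lipase gene hosl-1 (-0.44) fell, and neither was called without sort 1, 2 or 4. Of 35 genes of fatty acid activation and beta-oxidation, 12 rose, 9 fell and the median was -0.05. hacd-1 (1.41), the acyl-CoA synthetase genes acs-11 (1.09) and acs-2 (1.36) and ech-9 (2.48, exon overlap) rose. acox-1.1, for a peroxisomal acyl-CoA oxidase, fell, with 30.1, 26.4, 25 and 16.39 CPM in the high libraries, against 63.6, 76.4, 56.2 and 61.8 CPM in the low libraries (-1.42, SE 0.14, adjusted p = 0.000662, edgeR). Without sort 1 the increases in this list numbered 8, and without sort 2 the decreases numbered 4.

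Families of detoxification and secreted proteins leaned upward with members in both directions. Among cytochrome P450 genes 23 rose and 10 fell of 61 tested, among UDP-glucuronosyltransferases 21 rose and 9 fell of 62, and among glutathione S-transferases 8 rose and 4 fell of 33. Examples were cyp-34A9 (2.63, exon overlap) against cyp-13B1, ugt-6 (2.79) and ugt-4 (1.01) against ugt-13 (-2.16), and gst-13 (1.52) against gst-5 (-1.14, exon overlap). The transthyretin-related genes, for small secreted proteins, had 21 higher and 4 lower of 49, with 2 lower without sort 2, and included ttr-46 (1.61) and ttr-44 (2.46, exon overlap). Of 22 MATH domain genes 10 rose and none fell, with a median of 0.75 (math-38, 2.28). Of 5 pud genes, named for being upregulated in daf-2 mutants, 4 rose. pud-1.1 and pud-1.2 (both 2.58) are near-identical copies with almost the same counts in every library, so their reads cannot be told apart. They had 375 to 598 CPM in the high libraries, against 39.9 to 138 CPM in the low libraries. Without sort 2 the P450 decreases numbered 6, and without sort 2 or 4 the glutathione S-transferase increases numbered 5.

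Proteasome subunits rose by small amounts. Of 32 tested, 17 rose and none fell, with a median of 0.28 and the largest log2 fold change at 0.52. pas-1, an alpha subunit of the core, had 191, 220, 166 and 165 CPM in the high libraries, against 132, 155, 128 and 131 CPM in the low libraries (0.44, SE 0.08, adjusted p = 0.00513, edgeR), and pas-2 (0.52), pbs-6 (0.41) and the lid subunit gene rpn-12 (0.45) were alike. The number of increases depended on which sort was left out: 10 without sort 1, 6 without sort 2, 20 without sort 3 and 13 without sort 4. Of 47 genes of glycolysis, the TCA and the glyoxylate cycle 13 rose and 3 fell. Those that rose included icl-1 (1.12), which encodes the glyoxylate cycle enzyme, fbp-1 (0.65) of gluconeogenesis, pyk-2 (0.86, exon overlap) and sucg-1 (0.36), and aldo-1 (-0.85) fell. The increases numbered 5 without sort 1 and 4 without sort 2, each with 1 decrease. Vacuolar ATPase subunits, which acidify lysosomes and the gut lumen, had 5 of 20 higher and none lower. vha-6, the subunit of the intestinal apical membrane, stood apart at 1.85, with 168, 143, 139 and 88.9 CPM in the high libraries, against 29.7, 54.7, 52.4 and 20.2 CPM in the low libraries (SE 0.19, adjusted p = 0.000866, edgeR), and the other 4 lay between 0.27 and 0.36. Without sort 1 or sort 2, 1 subunit was called, and without sort 4, 3.

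Heat shock genes fell in part. Of 15 small heat shock protein and inducible HSP70 genes, 8 fell and sip-1 (0.50, exon overlap) rose, with a median of -0.77. hsp-16.1 (chromosome V, 9087293 to 9087782), a small chaperone induced by heat, had 52.8, 37.5, 41.4 and 34.5 CPM in the high libraries, against 180, 109, 133 and 98.0 CPM in the low libraries. Every high library was below every low one, and the log2 fold change of -1.63 (SE 0.08, adjusted p = 9.43e-05, edgeR) was among the 6 that passed 0.0001. hsp-16.48 (-1.58), hsp-16.41 (-1.01), hsp-16.2 (-0.99) and hsp-70 (-1.18) fell as well. hsp-16.1 and hsp-16.48 belong to a locus with near-identical copies. F44E5.4 and F44E5.5 (both -1.77) are near-identical HSP70 genes with nearly the same counts in every library, and cannot be told apart. The endoplasmic reticulum list held 4 of 20 lower and none higher, with a median of -0.20. xbp-1, the transcription factor of the unfolded protein response, had 360, 355, 436 and 362 CPM in the high libraries, against 802, 665, 745 and 702 CPM in the low libraries (-0.95, SE 0.10, adjusted p = 0.00069, edgeR). The other 3, pdi-2 (-0.43, exon overlap), uggt-1 (-0.30) and dnj-27 (-0.28), were called with all sorts but not without sort 1 or sort 2. The chaperone gene hsp-4, a usual readout of that response, was at -0.09 and did not pass.

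Hedgehog-related and basement membrane genes fell more often than the 17.3% of all genes, and cuticle collagens did not. Of 23 patched-related genes 14 fell and 4 rose, with a median of -0.83. ptr-22 had 11.2, 13.5, 17.1 and 20.96 CPM in the high libraries, against 39.3, 39.9, 33.6 and 63.4 CPM in the low libraries (-1.48, SE 0.15, adjusted p = 0.000581, edgeR). Among the hedgehog-related secreted proteins, 4 of 8 warthog genes fell and wrt-5 (0.50) was called higher, though not without sort 1, 2 or 4, and 4 of 11 groundhog genes fell and none rose. wrt-6 (-2.49) and wrt-10 (-0.86) were examples, whereas the groundhog genes called were all under 9 CPM in every library. Of 18 basement membrane genes 8 fell and none rose, with a median of -0.42. The laminin beta gene lam-1 had 219, 193, 325 and 304 CPM in the high libraries, against 508, 403, 427 and 556 CPM in the low libraries (-0.89, SE 0.14, adjusted p = 0.0028, edgeR). pxn-2 (-1.11, exon overlap), mig-6 (-0.93, exon overlap), the perlecan gene unc-52 (-0.97, exon overlap) and the syndecan gene sdn-1 (-0.44) fell with it, and the collagen IV genes emb-9 (-0.25) and let-2 (-0.07, exon overlap) did not pass. Of 92 cuticle collagen genes tested 12 fell, 4 rose and the median was -0.44. col-76 (-1.03) and col-33 (-1.62) fell and col-158 (1.47, exon overlap) rose, and the increases numbered 11 without sort 3 and 2 without any other sort. Leaving out sort 2 lowered the decreases to 8 patched-related, 1 warthog, 1 groundhog and 3 basement membrane genes, with 1 patched-related gene higher, and without sort 1 no groundhog gene and 2 warthog genes were called.

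Nuclear hormone receptors fell more often than other genes, and microRNA machinery genes fell in part. Of 198 nuclear hormone receptor genes 64 (32.3%) fell and 22 rose, with a median of -0.28, among them nhr-11 (-1.54) and nhr-84 (-1.47) against nhr-110 (1.65). nhr-11 had 13.02, 10.6, 19.2 and 17.8 CPM in the high libraries, against 51.02, 36.6, 41.2 and 44.3 CPM in the low libraries, with no overlap. The decreases numbered 33 without sort 1 and 28 without sort 2, with 8 increases each. Of 21 genes that make microRNAs or act with them, 6 fell and 3 rose. Both microRNA Argonautes fell, alg-1 (-0.81, exon overlap) and alg-2 (-0.40), as did both GW182-like partners, ain-1 (-0.63) and ain-2 (-0.50), nhl-2 (-0.51) and xrn-1 (-0.38, exon overlap). ain-1 had 168, 162, 250 and 214 CPM in the high libraries, against 288, 270, 302 and 360 CPM in the low libraries (SE 0.11, adjusted p = 0.00391, edgeR). The Argonaute gene rde-1 (0.11) and the Dicer gene dcr-1 (-0.20) did not pass, while pash-1 (0.23), xpo-3 (0.24, exon overlap) and rde-4 (0.30) were called higher. Without sort 2 the decreases in this list numbered 2; no member was higher without sort 1 or 2, and 1 without sort 3.

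The insulin, antioxidant and neuropeptide lists had calls in both directions. In the insulin/IGF-1 list of 19 genes, 4 rose and 3 fell. The kinase gene sgk-1 had 45.1, 40.7, 42.8 and 35.0 CPM in the high libraries, against 11.9, 14.8, 14.3 and 12.33 CPM in the low libraries, the clearest separation of the list (1.62, SE 0.12, adjusted p = 0.000275, edgeR). The insulin-like peptide genes daf-28 (-1.2), ins-11 (-1.73) and ins-4 (-0.66) fell, and the receptor gene daf-2 (-0.10) and the FOXO gene daf-16 (-0.07, exon overlap) did not pass. Without sort 1 or sort 2, 1 member rose and 1 fell. Of 11 superoxide dismutase, catalase and peroxiredoxin genes, ctl-2 (0.81, exon overlap), prdx-3 (0.38) and sod-2 (0.32, exon overlap) rose and sod-4 (-0.84, exon overlap) fell, and without sort 1 or sort 2 a single gene rose, and without sort 3, 5. FMRFamide-like peptide genes had 3 higher and 2 lower of 30, and neuropeptide-like protein genes 9 and 9 of 65, both under the background. nlp-67 (-2.18) and flp-15 (-1.07) were the largest decreases in these 2 families, and nlp-40 (0.52), which the intestine secretes in the defecation cycle, was called higher. Without sort 2 or 4 no flp gene was higher, and without sort 1, 1. The nlp increases numbered 5 without sort 2 and 4 without sort 4, and the nlp decreases 3 without sort 1 or 2.

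Several lists stayed near 0. No member passed among 31 small-subunit ribosomal protein genes and 14 mitochondrial unfolded protein response genes, nor among 6 complex I subunit genes; under an unadjusted p of 0.05 in edgeR the 3 lists had 6, 2 and 0 members, DESeq2 called 4, 1 and 0 and limma-voom 1, 0 and 0. Without sort 4, 3 mitochondrial unfolded protein response genes were called. Of 46 large-subunit ribosomal protein genes 1 rose (rpl-28, 0.29, exon overlap) and rpl-24.2 (-0.58) fell, and of 40 mitochondrial large-subunit genes mrpl-23 (-0.27) and mrpl-55 (-0.59) fell. Neither rpl-28 (adjusted p = 0.0539 to 0.189) nor mrpl-23 (0.0617 to 0.19, edgeR) was called with any 1 sort left out, and rpl-28 was not called without the block either (0.091). Gut granule genes, which build the lysosome-related organelles of the intestine, had pgp-2 (0.52) called of 18, and without sort 3 or sort 4 there were 3. The F-box A family was close to balanced, with 27 higher and 21 lower of 126, and 13 lower without sort 1.

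**Figure D3:**
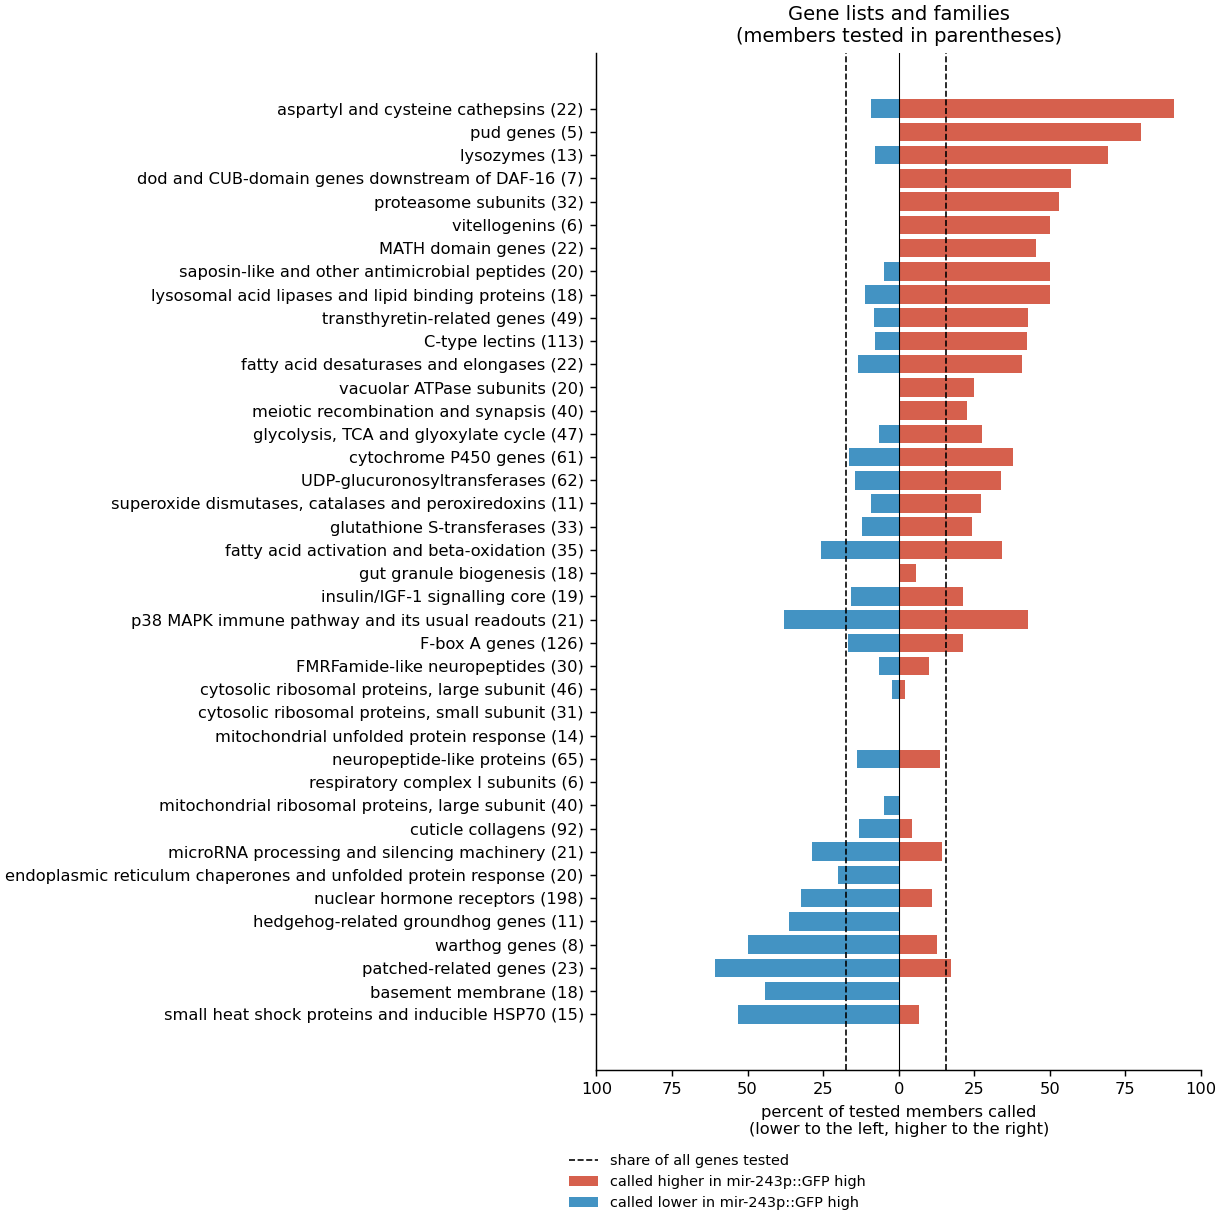
Percent of tested members of each list or family with 5 or more tested called higher (red, to the right) or lower (blue, to the left) in mir-243p::GFP high animals, with the number tested in parentheses; dashed lines mark 15.7% and 17.3%, the shares of all 14883 genes. Cathepsins (20 of 22) and lysozymes (9 of 13) extend far to the right, and patched-related genes (14 of 23) and heat shock genes (8 of 15) far to the left.

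Markers of some tissues moved with the groups. Summed over 13 intestine markers, the level was 1400 to 2740 CPM in the high libraries, against 689 to 1290 CPM in the low libraries. Most of that gap came from asp-1 (mean 1188 CPM in the high libraries, against 318 CPM in the low libraries), cpr-6 (414 against 124 CPM) and vha-6 (135 against 39.3 CPM). The abundant erm-1 was level (300 against 302 CPM). Of the 13 markers 8 rose, including the GATA factor elt-2 (0.93) and the esterase gene ges-1 (1.59), and act-5 (-0.39), ifb-2 (0.22), erm-1 (-0.01), eps-8 (-0.34, exon overlap) and mtl-2 (-0.17) did not pass. Summed germline and oocyte markers were 12900 to 20600 CPM in the high libraries, against 10700 to 14800 CPM in the low libraries. These ranges overlapped, with 9 of 22 markers higher and a median of 0.39. Hypodermis and seam markers ran the other way, 263 to 337 CPM in the high libraries, against 398 to 539 CPM in the low libraries, with 5 of 8 tested lower and 1 of 13 without a row. Neuron markers summed to 588 to 713 CPM in the high libraries, against 754 to 820 CPM in the low libraries, with 5 of 19 lower. Muscle markers (2 of 20 lower) and those of the spermatheca, sheath and uterus (2 lower and 1 higher of 9) overlapped between groups. Sperm markers, 5 of 16 high enough to test, summed to 6.18 to 8.21 CPM in the high libraries, against 8.39 to 21.4 CPM in the low libraries, with 1 higher and 2 lower. Embryo markers were at 36.5 to 49.2 CPM in the high libraries, against 22.2 to 29 CPM in the low libraries, with 3 of 5 tested higher. Eggs are not fertilized in these animals, so the embryo markers cannot be read as a measure of embryos. The part of these shifts in the changes of single genes was not tested.

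Calls were unevenly spread over the chromosomes. On the X 23.7% of 2161 genes were lower and 14% higher, with a median of -0.18, whereas the autosomes had 15% to 18.1% lower and medians of -0.01 to 0.03. Chromosome IV had the most genes higher, 18.8%, and chromosome V 18.5%. These are descriptions without a test. Among the most abundant genes called, the mitochondrial protein-coding gene WBGene00010964 (exon overlap) had 3977, 3975, 2928 and 3698 CPM in the high libraries, against 2684, 2664, 2564 and 2583 CPM in the low libraries (0.46, SE 0.12, adjusted p = 0.0185, edgeR), and it was not called without sort 1 or sort 2. The eggshell proteoglycan gene cpg-2 was at 0.49. The most abundant genes that fell were cav-1 for caveolin (-0.51), the lectin gene clec-266 (-0.71, exon overlap), the chitinase gene cht-1 (-0.75, exon overlap), pdi-2 and fasn-1. Leaving out sort 1, 2 or 3 ended the calls of cav-1 (adjusted p = 0.0551 to 0.119) and cpg-2 (0.053 to 0.122), and leaving out sort 4 that of fasn-1 (0.0963). Without the block cav-1 (0.0688), fasn-1 (0.0683) and pdi-2 (0.0926, edgeR) were not called.

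The same contrast, predicted long-lived over predicted short-lived, was then set against the mean of the other 3 biomarkers. A single model of all 34 libraries was used. A call marks a gene that differed from this mean, not from each of the 3. Across 14245 genes the effects of mir-243p::GFP had an SD of 0.73 and those of the other 3 on average 0.94, and 84.4% of genes had the same sign. The difference was called for 1722 genes, 1001 (7.03%) with a more positive and 721 (5.06%) with a more negative effect under mir-243p::GFP. In 1407 of them the sign was the same and the change smaller in mir-243p::GFP: 841 genes fell less and 566 rose less. The change was larger in mir-243p::GFP for 32 genes and of opposite sign for 283. No gene passed 0.0001, and 3996 had an unadjusted p under 0.05 (edgeR). The count rested on the sort as a block and on single sorts: it was 263 with group means in place of sorts, 926 without mir-243p::GFP sort 2, 637 without sort 3 and 600 without sort 4, and in none of these did a called gene change direction. With DESeq2 size factors 1063 of 1552 calls were more positive, 68.5% against 58.1%.

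**Figure D4:**
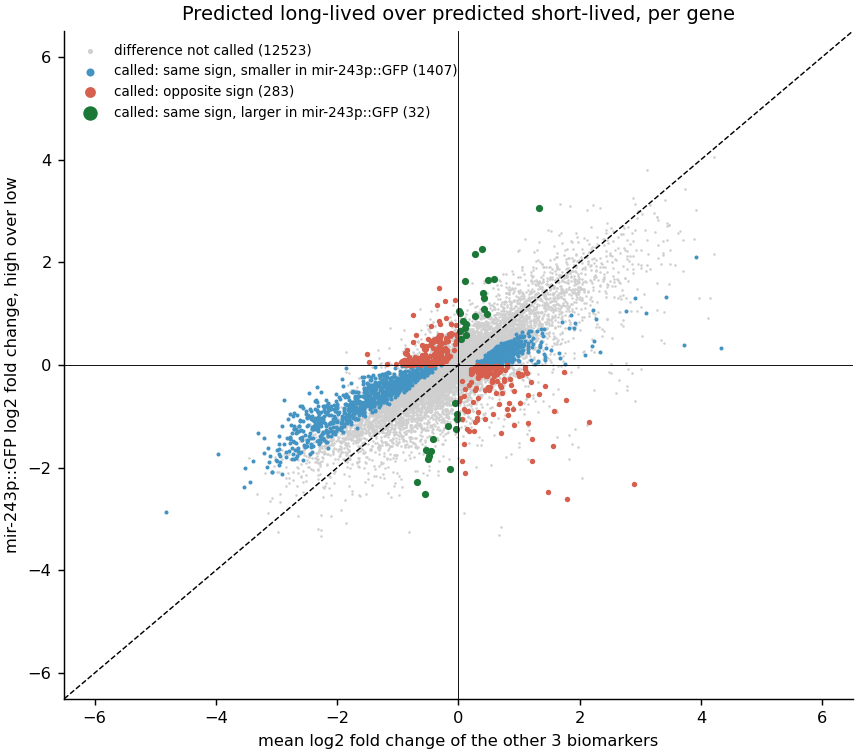
Log2 fold change of mir-243p::GFP high over low (vertical) against the mean log2 fold change of the other 3 biomarkers, predicted long-lived over predicted short-lived (horizontal), for 14245 genes; colours mark genes whose difference was called, and the dashed line marks equal effects. The 1407 blue genes lie between the line and the horizontal axis, 32 green genes beyond the line and 283 red genes in the opposite quadrants.

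Many genes that were lower in predicted long-lived animals were less so under mir-243p::GFP. The 3 genes with the smallest p for a more positive effect were the bZIP factor gene ces-2, C08F1.10 and the cuticle collagen gene dpy-2. ces-2 (chromosome I, 14961497 to 14965361) had 34.7, 33.5, 60.3 and 77.9 CPM in the high libraries, against 118, 81.8, 99.3 and 134 CPM in the low libraries, or -1.13 on the log2 scale (SE 0.17, adjusted p = 0.0027, edgeR). In the other 3 biomarkers it averaged -2.76, and the difference was 1.6 (adjusted p = 0.000174, edgeR). C08F1.10 (-0.57 against -1.84) and dpy-2 (-0.92 against -2.72) gave differences of 1.24 and 1.77 at the same adjusted p. The endoplasmic reticulum genes pdi-2, uggt-1, dnj-27, crt-1 and pdi-6, 5 of the 20 in that list, also had a more positive effect, as did 23 of 189 nuclear hormone receptors, with 3 more negative, where all genes had 7.03% and 5.06%.

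Meiotic genes, like most of the germline and oocyte markers, had smaller effects under mir-243p::GFP. Of 40 genes of meiotic recombination and synapsis, 9 were higher in mir-243p::GFP high animals and none lower, with a median of 0.19; 2 were higher without sort 1, and 4 without sort 2 or 4. The difference was called for 21 of the 40, all more negative under mir-243p::GFP, against 5.06% of all genes. How many of the 21 hold under the alternatives was not counted. Over all genes the more negative calls numbered 721, but 32 without the block and 55 without mir-243p::GFP sort 4. The medians of the list in that model were 0.16 for mir-243p::GFP and 0.65 for the others. This was not particular to meiotic genes. Most of the 22 germline and oocyte markers had a called difference, all more negative, such as glp-1 (0.27 against 0.76), pgl-1 (0.27 against 0.83) and spn-4 (0.38 against 0.88). The rest, such as pos-1 (0.29 against 0.37), were not called. him-8, which pairs the X chromosomes, had 49.2, 50.7, 40.7 and 44.4 CPM in the high libraries, against 35.5, 39.8, 32.4 and 33.11 CPM in the low libraries (0.39, SE 0.09, adjusted p = 0.0105, edgeR), and averaged 0.79 in the others (difference -0.42, adjusted p = 0.0391). spo-11 (0.34, exon overlap), the meiotic nuclease gene, had 0.80 in the others. taf-11.2, for a subunit of the general transcription factor TFIID, had 0.37 against 1.21, a difference of -0.86 (adjusted p = 0.00067, edgeR). The vitellogenin medians were 0.92 against 2.9, but no vitellogenin's difference was called. The collagen medians had opposite signs, -0.36 against 0.58, with 5 more positive and 1 more negative of 81.

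The changes that were larger under mir-243p::GFP than in the mean of the others were few. They were named after their values were seen, apart from clec-71 and acox-1.1. clec-71 (chromosome IV, 3937458 to 3939979) had 23.5, 20.8, 26.05 and 10.4 CPM in the high libraries, against 3.46, 2.16, 3.62 and 0.806 CPM in the low libraries. It rose by 3.08 (SE 0.19) in the 8 libraries and averaged 1.33 in the others, a difference of 1.74 (adjusted p = 0.000526, edgeR). endu-2, for an endoribonuclease (exon overlap), had 227, 223, 258 and 201 CPM in the high libraries, against 93.2, 93.2, 86.0 and 67.2 CPM in the low libraries (1.43, SE 0.09), and averaged 0.41 in the others (adjusted p of the difference 0.000412, edgeR). The lysosomal DNase gene nuc-1 (0.98 against 0.27) and the peptide transporter gene pept-3 (1.12 against 0.42) were called too, but in the model of all libraries pept-3 had 1.09 under mir-243p::GFP and 0.91 under mir-240/786p::GFP, and nuc-1 0.95 and 0.68, with lin-4p::GFP at 0.37 and 0.29 and autofluorescence at -0.03 and -0.16. On the side of decreases stood acox-1.1 (-1.42 against -0.41), ddn-1 (-2.25 against -0.69, exon overlap), lon-1 (-0.93 against -0.02), a regulator of body size, and pqn-35 (-1.62 against -0.53) and pqn-13 (-1.74 against -0.48), which belong with abu-14 to the Gln/Asn-rich proteins. The other biomarkers were not alike: pqn-35 had -1.17 under lin-4p::GFP, -0.63 under mir-240/786p::GFP and 0.21 under autofluorescence. In the same order pqn-13 had -0.78, -0.95 and 0.28, ddn-1 had -1.36, -1.08 and 0.37, and lon-1 had -0.08, -0.43 and 0.45. Of 5 abu genes tested 4 fell and none rose, with a median of -1.5, while pqn genes had 11 lower and 8 higher of 44.

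**Figure D5:**
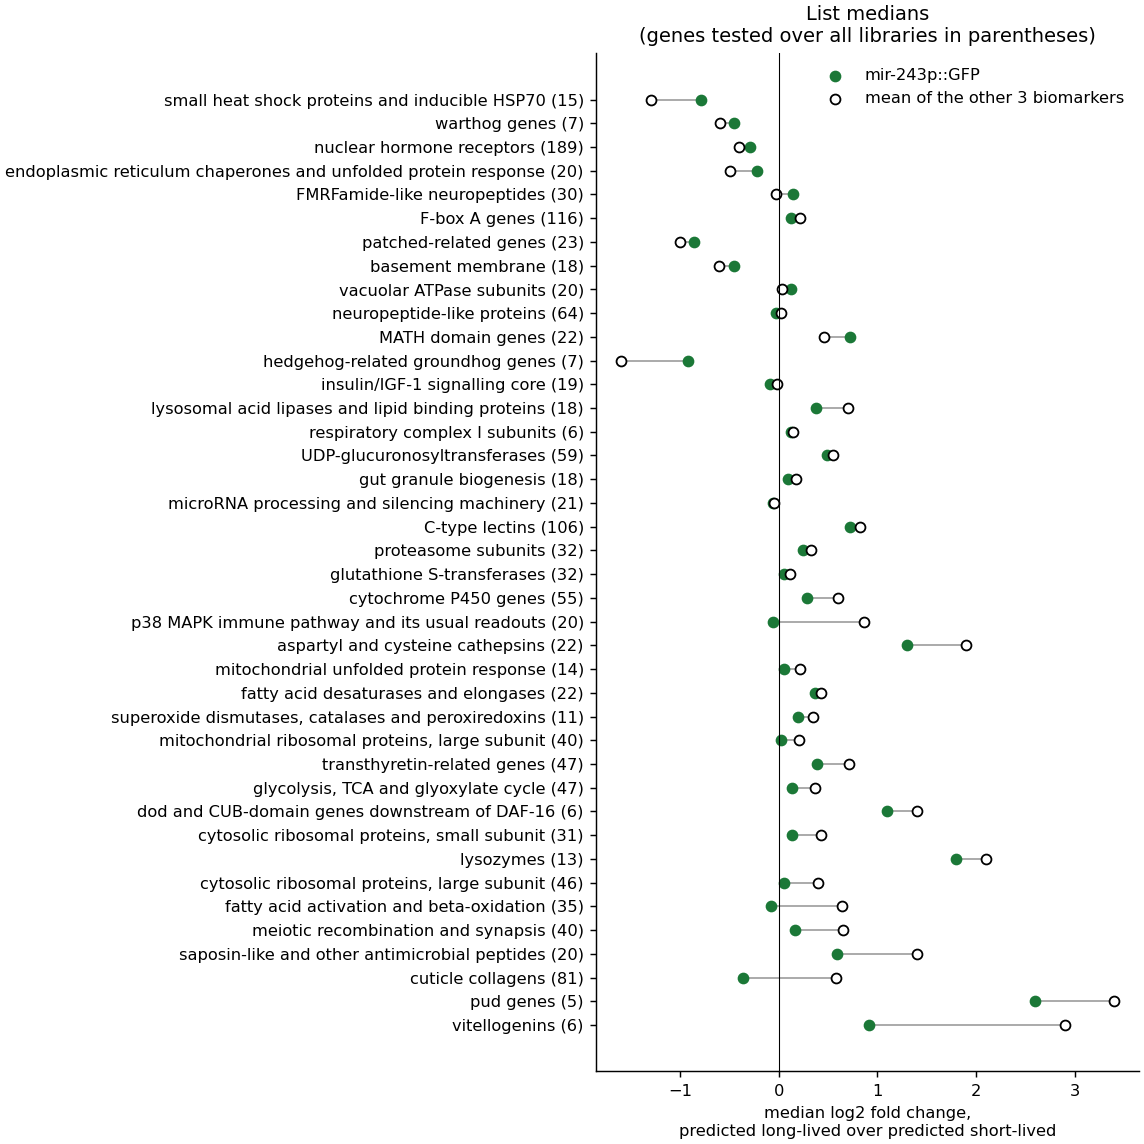
Median log2 fold change, predicted long-lived over predicted short-lived, of each list in the model of all libraries, for mir-243p::GFP (green) and the mean of the other 3 biomarkers (open); numbers of genes in parentheses, for lists with 5 or more genes tested, ordered by the median of the per-gene differences. Vitellogenins lie at 0.92 and 2.9, and cuticle collagens lie on opposite sides of 0 (-0.36 and 0.58).

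The genes opposite in sign to the mean of the others included cpt-3, fog-3 and spe-9. The effects of cpt-3 and fog-3 were positive in each of the other 3 biomarkers, whereas spe-9 had 0.86 under lin-4p::GFP, 0.38 under autofluorescence and -0.29 under mir-240/786p::GFP. Of those higher in the others and negative under mir-243p::GFP, 26 were called lower in the 8 libraries, 114 were not called and 2 were not tested there, and of the 141 of the reverse kind 31 were called higher. cpt-3, for a carnitine palmitoyltransferase, had 2.06, 1.77, 1.498 and 1.98 CPM in the high libraries, against 2.38, 4.31, 3.75 and 5.69 CPM in the low libraries (-1.09, SE 0.27, adjusted p = 0.0167, edgeR), and averaged 2.16 in the others (difference -3.28, adjusted p = 0.000811). fog-3, which specifies sperm fate, was at -0.86 (adjusted p = 0.103) against 1.57 (difference -2.46, adjusted p = 0.00118, edgeR). spe-9, the gene mutated in these animals, lay at 0.235 to 0.484 CPM in the high libraries, against 0.416 to 1.09 CPM in the low libraries (-0.89, adjusted p = 0.13; difference -1.23, adjusted p = 0.049, edgeR; exon overlap). All 31 major sperm protein genes together gave 1.32, 1.95, 1.2 and 3.21 CPM in the high libraries, against 5.35, 8.75, 37.6 and 2.90 CPM in the low libraries; 30 of them were under the filter, and msp-76 (-1.32, adjusted p = 0.0435) was called with all 4 sorts but not without sort 1, 2 or 3. In the predicted long-lived and short-lived libraries of the others the sums were 13.2 to 152 and 3.02 to 7.11 CPM for mir-240/786p::GFP, 1.46 to 147 and 2.75 to 4.88 CPM for autofluorescence, and 0.538 to 110 and 1.99 to 58.4 CPM for lin-4p::GFP. Single libraries thus spanned a wide range within most groups.

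The mRNA that mir-243 targets, Y47H10A.5 (chromosome I, 12095482 to 12097987), had 129, 92.6, 141 and 78.1 CPM in the high libraries, against 183, 137, 112 and 114 CPM in the low libraries. It was lower in 3 of 4 sorts and the groups overlapped, and its log2 change was -0.33 (SE 0.15, adjusted p = 0.137, edgeR), which did not pass. In the other 3 biomarkers it averaged -1.38, and the difference of 1.03 passed (adjusted p = 0.0337, edgeR).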

How the data were processed

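Poly(A)-selected, rRNA-depleted RNA of pooled whole animals was sequenced. The authors deposited raw read counts per gene, not normalized, which their processing notes place after STAR 2.7.3a and featureCounts on WBcel235; the annotation release, strand setting, treatment of multiply mapped reads and sequencing batch are not given in the sources used here, so no batch term was fitted. Gene positions, exon overlaps on either strand and symbols came from an Ensembl annotation of WBcel235.

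Genes with 5 or more counts in at least 6 of the 8 libraries were tested with edgeR 4.0.16 (R 4.3.3): TMM factors, robust quasi-likelihood F test, level plus sort, Benjamini-Hochberg adjustment over all genes, 3 residual degrees of freedom, called at 0.05. The labels number the sorts, and the high and low libraries of a number came from the same sort; their deviations from the group means correlated at -0.05, 0.16, 0.03 and 0.23 for sorts 1 to 4. The difference between biomarkers used all 34 libraries, 17 sorts as blocks and 1 effect per biomarker, with 5 or more counts in at least 26 libraries. CPM values are scaled by TMM. Libraries held 17965508 to 24939626 counts; the floor is 3 counts, for counting error only.

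Alternatives were DESeq2 1.42.0, limma 3.58.1 (voom), other scalings and filters, no block, all 34 libraries and each sort left out. The code was tested on simulated data. Named genes were, among those called, the 12 largest changes each way at a mean of 5 CPM or more with the same direction in all 4 sorts, the 5 most abundant each way, the 3 smallest p each way for the difference, up to 4 per list by smallest p, and Y47H10A.5, mir-243 if it had a row, spe-9 and gfp. Other members given as examples were chosen after their values were seen, as were the abu and pqn families and the summed major sperm protein genes. The comparison, the 20 lists and the 21 gene families were chosen with earlier results of these data known. The planned promoter motif search was not run and no sequence is shown, since no genome sequence was used here.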

Additional observations from a re-analysis of the deposited data

Results flagged for a closer look

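Of 352 groups of 4 libraries, 24 had a highest or lowest library set apart from the rest by Dixon's ratio, where chance would give 1 in 20, or 17.6. In the high group of sort 3 these were spp-2 (48.6 CPM), fasn-1 (1360 CPM), xbp-1 (436 CPM), alg-1 (134 CPM) and col-76 (36.8 CPM). In the high group of sort 4 they were cpr-1 (422 CPM), ctl-2 (41 CPM), aldo-1 (20.7 CPM) and flp-3 (7.62 CPM), and in that of sort 1 lys-5 (11.8 CPM), acs-11 (223 CPM) and the near-identical pud-1.1 (597 CPM) and pud-1.2 (598 CPM). In the low group of sort 3 they were spp-5 (151 CPM), spp-14 (67.1 CPM), lbp-7 (3.91 CPM) and math-45 (1.54 CPM). In the low group of sort 4 they were gfp (892 CPM) and ptr-4 (43.6 CPM), in that of sort 2 pas-1 (155 CPM), nlp-40 (101 CPM) and vha-18 (69.7 CPM), and in that of sort 1 nlp-67 (4.05 CPM) and wrt-5 (9.22 CPM).

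The effect of mir-243p::GFP differed from the mean of the other 3 biomarkers, by the contrast in the model of all libraries, for 36 of the named genes, 25 more positive and 11 more negative on the log2 scale. Among the largest changes, the smallest p-values for the difference and the genes named whatever their values, it was more positive for ces-2 (1.6), C08F1.10 (1.24), dpy-2 (1.77), clec-71 (1.74), C27H5.6 (1.96) and Y47H10A.5 (1.03), and more negative for cpt-3 (-3.28), fog-3 (-2.46), taf-11.2 (-0.86) and spe-9 (-1.23). Among the most abundant genes it was more positive for cav-1 (0.976), clec-266 (1.41), cht-1 (0.947) and pdi-2 (0.479) and more negative for cpg-2 (-0.515). Among list members of the matrix, cuticle and hedgehog-related families it was more positive for lam-1 (0.7), sdn-1 (0.584), col-76 (1.26), col-99 (1.25), wrt-10 (1.26) and ptr-4 (1.03). It was also more positive for dnj-27 (0.566), uggt-1 (0.543), ain-1 (0.664), irg-2 (1.01), nhr-84 (0.678), flp-15 (0.825), fbxa-37 (0.918), fbxa-50 (1.52) and fbxa-63 (0.935). It was more negative for acox-1.1 (-1.03), rpn-12 (-0.289), him-8 (-0.422), spo-11 (-0.48), vha-7 (-0.414) and vha-18 (-0.603). What lies behind these differences was not tested.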

How the results depend on the processing

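With 1 sort left out, genes called numbered 2575 to 4693, of which 1277 to 2283 were higher and 1298 to 2410 lower. Over the other alternatives they numbered 4646 to 5288, and none of the genes called changed direction under any alternative. Library totals alone gave 1978 higher and 2748 lower. Without the sort as a replicate block 4646 genes were called, 2208 higher and 2438 lower. For the difference between biomarkers, dropping the replicate block gave 263 calls, 231 more positive and 32 more negative, against 1722, 1001 and 721 with it. Leaving out a mir-243p::GFP sort gave 600 to 1766 calls, 446 to 1218 more positive and 55 to 548 more negative. At the study's threshold of 0.0001, 6 genes passed in the fit reported, 90 without the block, 473 with all 34 libraries, 1842 with DESeq2 and 0 with limma-voom. Of 2072 values for 173 named genes, 1934 kept their direction and their side of the threshold, 136 were no longer called, 2 became called and 0 reversed. Differences between biomarkers held less well: of 287 values for 41 genes with a called difference, 161 kept their call and 126 lost it, 34 of the 41 genes lost it under at least 1 alternative, and 32 of 41 lost it without the block. With 4 sorts and 3 residual degrees of freedom, genes near the filter had the least precision. Whether the sorts shared a culture or a sequencing batch cannot be told apart from the sort itself, and the cause of the changes with sorts left out was not tested.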
